A study of Mus musculus with 2 samples.

Results

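The genes described here are the collagens, the matrix metalloproteinases, their tissue inhibitors (Timp) and the lysyl oxidases, measured in livers of apoE-KO mice after 1 week on normal chow or on the high-Chol diet. They were chosen by gene name. The rule took every symbol on the array that begins with Mmp, Timp or Lox or has the form of a collagen chain symbol, such as Col1a1. It uses no measured value, but it was set with earlier results of these data known. The array carried 71 such genes on 120 probes, of 27962 gene names on 41174 probes in all. There were 40 collagen genes, 21 metalloproteinases, 4 inhibitors and 5 lysyl oxidases, and the name rule also took in Loxhd1, which is not a lysyl oxidase. All mice were male apoE-KO animals on the C57BL/6 strain, so the control group lacks apoE too. The normal chow group and the group given the same chow with 1.25% cholesterol added (high-Chol diet) both started at 10 weeks of age, and each diet has 3 arrays from independent experiments. The labels do not say whether an array holds RNA of 1 mouse or of several, so the p-values below measure the spread between these arrays. RNA came from liver tissue, not from sorted cells, and in such bulk samples fewer cells of a type cannot be told apart from less RNA per cell.

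Fibrillar collagens (types I, III and V) form the fibers of connective tissue, while type IV collagen forms the network of basement membranes and type VI collagen makes beaded filaments. Collagens are secreted as procollagen, trimmed and assembled outside the cell, and lysyl oxidases then cross-link the fibers. Matrix metalloproteinases are zinc proteases that cleave matrix proteins, and Timp proteins bind and block them. In the liver, stellate cells and the myofibroblasts they give rise to are the best known source of fibrillar collagen in fibrosis, and macrophages are a known source of several metalloproteinases, among them Mmp12, the macrophage elastase.

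Mmp12, the member with the largest difference between the diets, lies in a cluster of metalloproteinase genes on chromosome 9, and most genes of this cluster hold an AP-1 motif near their start. AP-1 is the Fos and Jun transcription factor pair. RefSeq promoter windows (build GRCm38.p6, 250 bases before to 50 after the annotated start) were matched by symbol for 53 of the 71 genes. The AP-1 motif TGANTCA, whose reverse complement is the same pattern so that 1 search covers both strands, was present in 8.97% of all 27025 genes with a window, counting a gene with several windows once. By the same count it was present in 7 of 16 metalloproteinases with a window, in 1 of 32 collagens (Col6a1) and in 0 of 4 inhibitors. All 7 lie among the 8 metalloproteinases whose windows fall between positions 7272264 and 7692390 of chromosome 9, and none of the other 8 metalloproteinases holds the motif. The TATAAA motif, searched on both strands, was present in 15.7% of all genes with a window, in 9 of the 16 metalloproteinases and in 5 collagens. The AP-1 matches are shown to let the shared motif be compared, each with 9 bases on either side, 5′ to 3′ on the plus strand that all 7 genes are on, with the motif in capitals.
Mmp13, chr9:7272470-7272494: ccaaagtggTGACTCAtcactatca
Mmp12, chr9:7347321-7347345: catcaacagTGAGTCAgatagagga
Mmp3, chr9:7445767-7445791: aagcaattaTGAGTCAgttttcggg
Mmp1a, chr9:7464059-7464083: tgtcaaccaTGAGTCAcatagcctc
Mmp10, chr9:7502270-7502294: gcacccatgTGAGTCAtgcttagtg
Mmp20, chr9:7628127-7628151: tttgagacaTGAATCAtcacttaca
Mmp7, chr9:7692018-7692042: gtgtgcaaaTGAGTCAcctatttcc
Mmp12 has 2 annotated starts, and the motif is in the window of the downstream one, from base -44 to base -38 counted from the start, with no match in the window of the upstream start. The TATAAA match of this window runs from base 4 to base 9 and so lies past the annotated start. The window (chr9:7347124-7347423, plus strand) is given whole, with the AP-1 and TATAAA matches in capitals.
Mmp12: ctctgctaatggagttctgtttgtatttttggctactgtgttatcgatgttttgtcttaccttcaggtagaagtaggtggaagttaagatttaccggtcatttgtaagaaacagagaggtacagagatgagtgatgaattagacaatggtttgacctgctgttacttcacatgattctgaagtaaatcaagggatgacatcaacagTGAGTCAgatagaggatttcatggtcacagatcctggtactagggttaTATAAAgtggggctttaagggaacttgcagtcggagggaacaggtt
A match is a description of the letters in these windows and does not show that a factor binds there. Of the 8 metalloproteinases in this stretch of chromosome 9, 2 gave a signal that passed the filter described below, Mmp12, at least 10.5-fold higher under the high-Chol diet, and Mmp7, which was not called (difference -0.12, adjusted p = 0.879).

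Each value is a relative signal, the log2 of the background-subtracted brightness of a probe minus the 75th percentile of its array, and a difference is the high-Chol mean minus the normal chow mean on that log2 scale. The 75th percentile of brightness was 271 to 325 on the normal chow arrays and 373 to 799 on the high-Chol arrays, and 50.5% to 67.2% of spots were well above background. The 3 normal chow arrays and 1 high-Chol array (position 4) were on slide 1, and the other 2 high-Chol arrays (positions 2 and 3) were on slide 2, so slide and diet overlap in part. The 75th percentile of 373 belongs to the high-Chol array of slide 1, and both slide 2 arrays were brighter. Differences with slide as a block, which rest on the high-Chol array of slide 1, are given beside the genes described by array. In any fit without that array, normal chow is all on slide 1 and high-Chol all on slide 2. Diet and slide cannot be told apart in such a fit. The 5 hepatocyte markers that passed the filter had a signal above background on each of the 6 arrays, and their summed signal was 10.32 to 10.48 on normal chow and 9.99 to 10.08 on the high-Chol diet.

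Of the 71 genes, 46 passed the filter, which asked that 1 of the diets, or both, have a signal well above background on each of its 3 arrays: 28 collagens, 11 metalloproteinases, all 4 inhibitors, Loxl1, Loxl2 and Loxhd1. In 33 of them the signal was well above background on all 6 arrays. The 25 that did not pass included 12 collagens, 10 metalloproteinases and 3 lysyl oxidases. Lox itself, the founding lysyl oxidase, and the collagenase Mmp13 were not well above background on any array, and the neutrophil collagenase Mmp8 was on 1 high-Chol array.

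On the high-Chol diet 2 of the 46 genes, Mmp12 and Col1a1, were called higher and 0 were called lower (limma with Benjamini-Hochberg adjustment over all 16730 genes, adjusted p below 0.05). Among all genes 2.69% were called higher and 0.227% lower, and 2 of 46 is close to this background. At an unadjusted p below 0.05, 11 of the 46 were higher (12.3% of all genes) and 5 were lower (8.83%). Normal chow and high-Chol arrays did not overlap in 11 genes that were higher, beside 11.6% of all genes, and in 6 that were lower, beside 13.7%. Of the 46, 12 were over 1.5-fold higher (15.4% of all genes) and 3 over 1.5-fold lower (5.84%). The paper, with its own normalization and filter, counted more genes lower than higher at 1.5-fold. The median difference was 0.11 over the 46 genes and -0.02 over all genes. Some of the 46 passed through the signal of 1 diet only, and in the 33 genes above background on all 6 arrays the median was 0.02, beside -0.07 for all such genes, with 6 over 1.5-fold higher (9.6% of all such genes) and 3 lower (6.33%). None of the 46 was called with slide as a block, a fit that called 0.0658% of all genes.

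**Figure D1:**
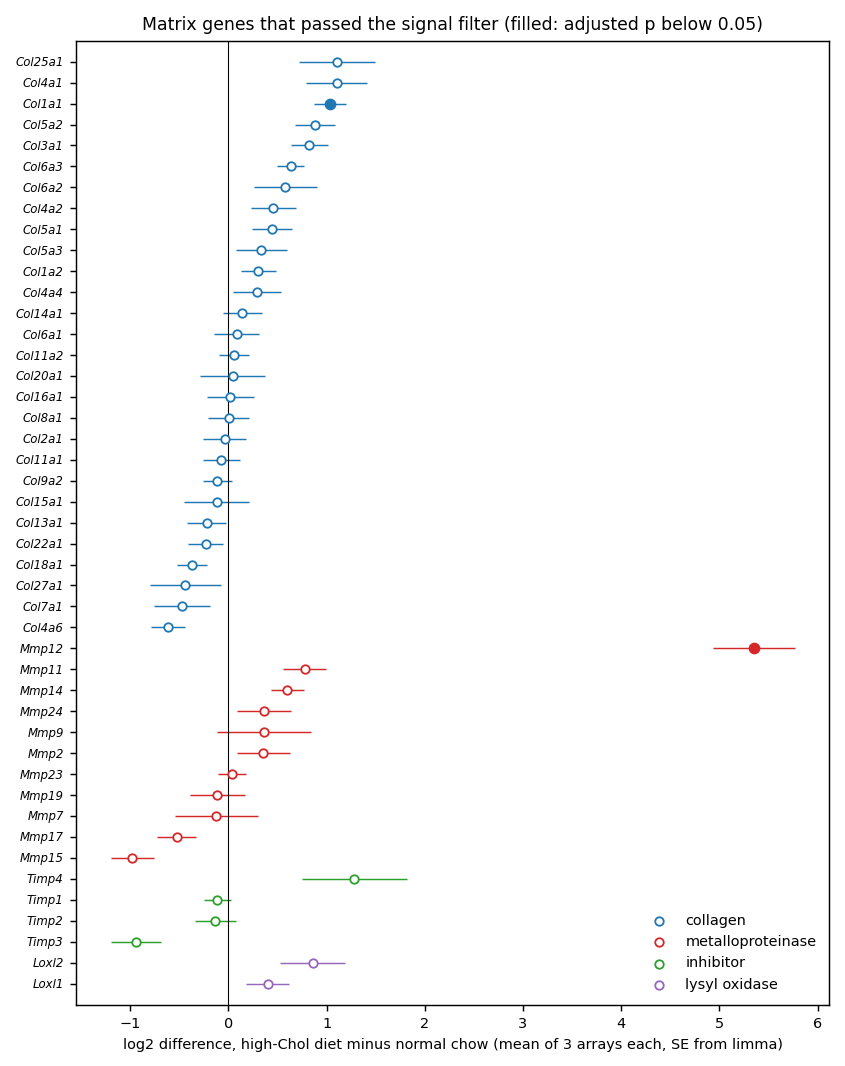
Log2 difference, high-Chol diet minus normal chow, of the collagens, metalloproteinases, inhibitors and lysyl oxidases that passed the filter, with 3 arrays per diet and bars for the standard error from limma. Col2a1 has values on 2 high-Chol arrays only. Filled points are Mmp12 and Col1a1 (1.04), the genes with an adjusted p below 0.05. The point for Mmp12 is the measured difference from normal chow arrays without a signal well above background, where the data give only the bound of at least 10.5-fold. Most other genes lie within 1 log2 unit of 0.

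Mmp12 showed the largest difference of all members. This protease degrades elastin and other matrix proteins and is made mainly by macrophages. Its probe (chromosome 9, 7352125 to 7352640, plus strand, build mm7) was not well above background on any normal chow array and was on all 3 high-Chol arrays. The relative signal was -5.66, -6.79 and -7.11 under normal chow and -1.74, -0.75 and -1.01 under the high-Chol diet, where the first high-Chol value, here and in all sentences below, is the array on slide 1. All high-Chol arrays were far above all normal chow arrays. Against the lowest signal that counts as well above background, the high-Chol mean was at least 10.5-fold higher. The gene passed the filter through the high-Chol arrays alone, so the measured means of -6.52 and -1.17 had to differ, and neither the size of their difference nor its adjusted p (0.0045, and 0.081 after blocking on slide) says more than the bound. With a normexp background correction the measured difference was 0.49 and was not called, and the bound does not hold there.

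Several macrophage and neutrophil markers were also higher on the high-Chol diet. Of 10 macrophage markers, 9 passed the filter (Itgam did not), all 9 had higher means on the high-Chol diet and 5 were called, Gpnmb among them, beside 47.8% of all genes above 0 and 2.69% called higher. Their summed signal was 6.75 to 6.94 on normal chow and 7.98 to 8.24 on the high-Chol diet. Cd68 (difference 1.74) and Trem2 (3.37), both called, were well above background on all 6 arrays. Cd5l and Marco were called too, while Adgre1, Csf1r, Mrc1 and Clec4f were not. Of the neutrophil markers 5 passed, all 5 had higher means, and the 3 called genes were S100a8 (3.21), S100a9 (2.90) and Retnlg, the last at least 3.76-fold higher, while Elane and Camp did not pass and Ly6g was not matched on the array. The median difference was 1.42 over the macrophage markers tested and, with Retnlg at its bound, 2.18 over the neutrophil markers. The latter is the measured value of a marker that was not called. The summed neutrophil signal was 0.69 to 0.86 on normal chow and 3.27 to 3.996 on the high-Chol diet. Gpnmb, like Retnlg, was not well above background on any normal chow array, so it passed the filter through the high-Chol arrays alone, and it was at least 63.1-fold higher. The calls of Cd68, Trem2, S100a8 and S100a9 held with any 1 array left out, and those of Cd5l and Marco were lost in 4 and that of Retnlg in 5 of the 6 such fits. In the fit with the slide block none of these 7 was called (adjusted p from 0.077 to 0.251). The part of these cells in the result for Mmp12 and the other members was not tested.

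None of the other metalloproteinases was called. Of the 11 that passed, Mmp12 included, 7 were above 0 and 4 below, with a median difference of 0.35, and in the 5 with a signal on all 6 arrays the median was -0.11. The median was -0.45 with the normexp background, beside -0.11 for all genes, and -0.01 with quantile normalization, beside -0.02. In the authors' deposited values it was -0.20 over 9 of the genes, without Mmp12 and Mmp9, beside -0.28 for all genes. The membrane-type proteases, which stay anchored at the cell surface, lay on both sides of 0, and none of them was called.

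Mmp14, a membrane-type enzyme that cleaves fibrillar collagen and activates pro-Mmp2, had relative signals of 2.07, 2.35 and 2.32 under normal chow and 2.86, 2.68 and 3.01 under the high-Chol diet. Every high-Chol array was above every normal chow array, although the gene was not called (difference 0.60, SE 0.16, adjusted p = 0.119, or 0.61 within the slide block). A second Mmp14 probe differed by 0.33.

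Mmp15, another membrane-type enzyme, read 0.41, 0.54 and 0.59 under normal chow and -0.08, -0.87 and -0.45 under the high-Chol diet. The groups did not overlap and the high-Chol arrays were the lower ones, with a difference of -0.98 (SE 0.22, adjusted p = 0.072). It was -0.59 with slide as a block, and it was -1.17 and called when the high-Chol array of slide 1 was left out (adjusted p = 0.0096). Mmp17, also of the membrane type, was -0.53 (adjusted p = 0.199, or -0.25 within the slide block), with no overlap between the diets.

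The gelatinases Mmp2 and Mmp9, which digest denatured collagen and basement membrane, were not called. Mmp2 read -3.62, -4.22 and -3.25 under normal chow and -3.11, -3.58 and -3.35 under the high-Chol diet, and the groups overlapped (difference 0.35, SE 0.27, adjusted p = 0.454, or 0.59 within the slide block). For Mmp9, a protease stored by neutrophils, the probe used differed by 0.36 (SE 0.48, adjusted p = 0.672, or 0.85 within the slide block), and its values overlapped between the diets. The second Mmp9 probe was not well above background on normal chow and was on all 3 high-Chol arrays, at least 1.22-fold higher, with measured means that differed by 0.93. On this probe the normal chow array at position 1 (-4.09) lay above all 3 high-Chol arrays (-4.39, -4.13 and -4.28), and the authors' values gave it a difference of -0.38. Mmp19, found in many tissues, overlapped between the diets at -0.34, -1.21 and -1.08 on normal chow against -0.76, -1.35 and -0.87 (difference -0.11, adjusted p = 0.829, or 0.12 within the slide block).

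Col1a1, the main chain of type I collagen, was the only collagen called. Col25a1 (1.11) and Col4a1 (1.102) had larger differences and were not called. The probe used for it (chromosome 11, 95060800 to 95060859, plus strand, build mm7) read -0.79, -1.15 and -1.13 under normal chow and 0.14, -0.07 and -0.02 under the high-Chol diet. The groups were well separated, and the difference was 1.04 (SE 0.17, adjusted p = 0.026), a 2.05-fold change. With slide as a block it was 1.16 (adjusted p = 0.148). The size stayed between 0.97 and 1.15 when any 1 array was left out, but the call was lost without the normal chow array at position 2 (difference 0.97, adjusted p = 0.127) or at position 3 (0.98, 0.095), and without the high-Chol array at position 2 (1.08, 0.103) or at position 3 (1.05, 0.085) of slide 2. The call was also lost with the normexp background (0.54), median scaling (0.80, adjusted p = 0.111), no filter (adjusted p = 0.140) and the mean of probes (0.71, adjusted p = 0.093). Of the other 2 Col1a1 probes, A_51_P377094 passed the filter and differed by 0.39 (adjusted p = 0.364 when every probe was tested), and the third did not pass and differed by -0.28.

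**Figure D2:**
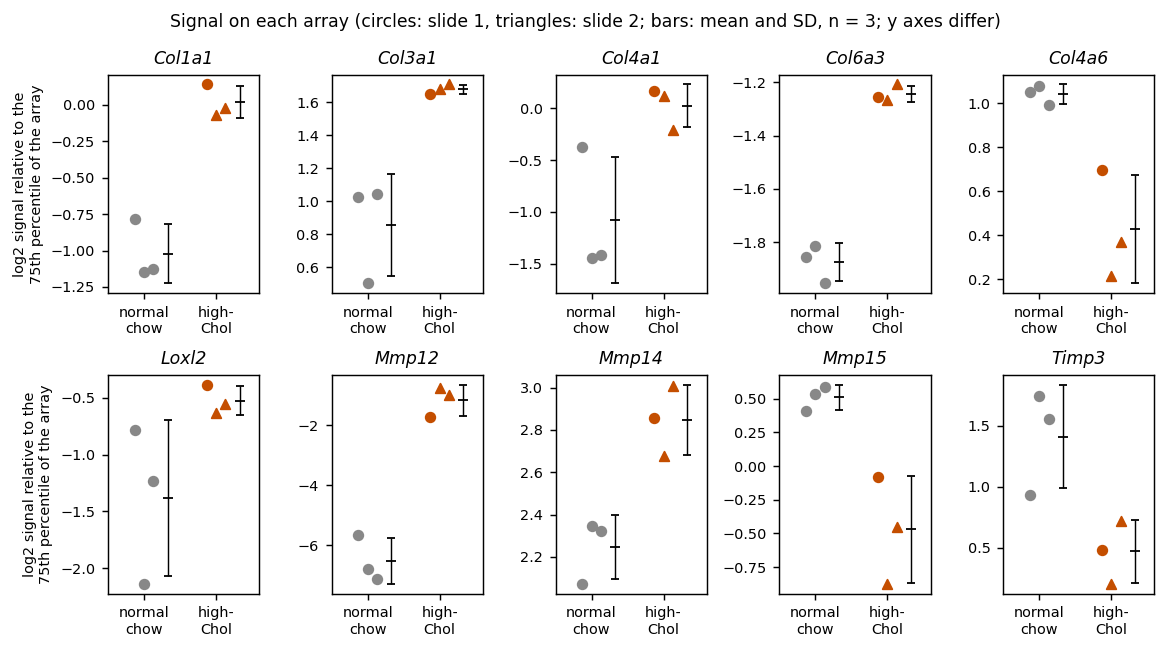
Relative signal (log2, 75th percentile of the array set to 0) of 10 matrix genes on each of the 6 arrays, circles for slide 1 and triangles for slide 2, with bars for the mean and SD of 3 arrays. The genes shown were called, or were above background on all 6 arrays and over 1.5-fold different without overlap between the diets. The lack of overlap thus follows from the choice, and among all genes 11.6% were higher and 13.7% lower without overlap. In Col1a1, Col3a1 and Col6a3 the high-Chol array of slide 1 lies close to both arrays of slide 2.

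Other fibrillar and filament collagens lay above 0 without passing the test. Of 10 fibrillar chains that passed the filter 7 were above 0, with a median of 0.32, and 4 had no overlap between the diets, all higher on the high-Chol diet, beside 11.6% of all genes. Col3a1, the chain of type III collagen, had values of 1.03, 0.50 and 1.04 under normal chow and 1.65, 1.68 and 1.71 under the high-Chol diet. The high-Chol arrays agreed closely and lay above all normal chow arrays, with a difference of 0.82 (SE 0.19, adjusted p = 0.076) that was 0.79 with slide as a block. It was called without the high-Chol array of slide 1 (0.84, adjusted p = 0.043).

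Col1a2, which pairs with Col1a1 in type I collagen, showed a smaller difference that was not called, at 1.04, 0.86 and 1.26 on normal chow against 1.55, 1.22 and 1.30 (0.31, SE 0.17, adjusted p = 0.344, or 0.50 within the slide block). For this chain the diets overlapped. Type V collagen starts fibril assembly. Its chain Col5a2 read -3.84, -4.39 and -3.90 under normal chow and -2.98, -3.15 and -3.36 under the high-Chol diet (difference 0.88, SE 0.20, adjusted p = 0.077, or 1.06 within the slide block), without overlap, and Col5a1 differed by 0.44 (adjusted p = 0.264, or 0.46 within the slide block), also without overlap. Col5a2 was well above background on 2 of the 3 normal chow arrays, and with the normexp background its difference was -0.49.

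Type VI collagen has 3 main chains, and all 3 were above 0, with a median of 0.58. Col6a3 was the most even of them, with -1.86, -1.82 and -1.96 under normal chow and -1.26, -1.26 and -1.21 under the high-Chol diet. Its spread within each diet was far smaller than the gap between them, and the difference was 0.63 (SE 0.14, adjusted p = 0.063), with 0.62 with slide as a block and 0.64 and a call (adjusted p = 0.029) without the high-Chol array of slide 1. With the normexp background it was -0.04. In Col6a2 the high-Chol array of slide 1 (-2.62) lay within the normal chow range of -2.90 to -2.29, and only the slide 2 arrays were higher, at -1.66 and -1.56. Its difference of 0.58 (adjusted p = 0.331) was -0.10 with slide as a block. Col6a1 differed by 0.08 (SE 0.23), by 0.396 with slide as a block, and by -0.13 with quantile normalization.

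In the basement membrane, 3 of the 4 type IV chains that passed the filter were above 0. Col4a1 and Col4a2 make the common type IV network and their genes are neighbours on chromosome 8. Col4a1 read -0.37, -1.45 and -1.42 under normal chow and 0.17, 0.12 and -0.21 under the high-Chol diet. The diets did not overlap, but 1 normal chow array stood close to the high-Chol arrays, and the difference of 1.102 had an SE of 0.31 (adjusted p = 0.126, or 1.25 within the slide block). Without that array, position 1 of slide 1, the difference was 1.46 and was called (adjusted p = 0.035). The second Col4a1 probe differed by 0.39.

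Col4a2 read 0.09, -0.73 and -0.33 under normal chow and 0.28, 0.14 and -0.02 under the high-Chol diet (difference 0.46, SE 0.23, adjusted p = 0.294, or 0.60 within the slide block), and its second probe differed by 0.82 with no overlap. Col4a6, a chain of a rarer type IV network, went the other way, from 1.05, 1.08 and 0.99 to 0.70, 0.22 and 0.37. Its difference was -0.61 (SE 0.17, adjusted p = 0.124), or -0.34 within the slide block, and it was called without the high-Chol array of slide 1 (-0.75, adjusted p = 0.019).

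Col18a1, the source of endostatin and a collagen that hepatocytes are known to make, read 7.44, 7.296 and 7.49 under normal chow and 7.19, 6.97 and 6.94 under the high-Chol diet. The high-Chol arrays were all lower, the gene was not called (difference -0.37, SE 0.15, adjusted p = 0.224, or -0.22 within the slide block), and its second probe differed by -0.50. Both multiplexins, Col18a1 and Col15a1, were below 0. Col14a1, which coats fibrils, overlapped between the diets (difference 0.14, SE 0.20, adjusted p = 0.688, or -0.08 within the slide block).

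Over all 28 collagens tested, 18 were above 0 and 10 below, beside 47.8% above 0 and 52.2% below among all genes, and the median difference was 0.07. Col1a1 was called, 1 of 28 beside 2.69% of all genes, 6 had no overlap with higher values, beside 11.6%, and 2 had none with lower values, beside 13.7%. The median was 0.09 above that of all genes with the 75th percentile, 0.09 with median scaling and 0.18 in the authors' deposited values, but 0.03 below it with quantile normalization and 0.08 below it with the normexp background. Of the remaining collagens the differences ran from -0.47 for Col7a1 to 1.11 for Col25a1, and neither was called.

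The choice of probe also mattered for other collagens. The probes of Col27a1 that passed the filter differed by -0.44 and 0.35, and those of Col11a2 by 0.06 and 0.78, and none of these was called. The brightest probe of Col2a1, a cartilage collagen chain, differed by -0.04, with values on 2 high-Chol arrays only. A second probe differed by 1.23 with no overlap, and it was called when only probes with a signal on all 6 arrays were kept (adjusted p = 0.040). In Col22a1 the probe used differed by -0.23, and the second was not well above background on normal chow and at least 2.53-fold higher under the high-Chol diet, with -4.80 on the array of slide 1 and -2.29 and -2.48 on slide 2.

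Timp1, an inhibitor known to rise in liver injury, was read differently by its 3 probes, all of which carry the same transcript accession in the array annotation. The brightest, A_52_P87713 (chromosome X, 19307699 to 19307758, plus strand, build mm7), read 2.18, 2.10 and 2.13 under normal chow and 2.08, 2.04 and 1.93 under the high-Chol diet. It stands for the gene by the rule used for every gene, and although its high-Chol arrays were all the lower ones, the difference was small (-0.11, SE 0.14, adjusted p = 0.634, or -0.05 within the slide block). The other 2 probes lie upstream of it, the nearer one ending 1460 bases before it. Probe A_51_P512379 (19305989 to 19306238) read -5.79, -6.98 and -7.33 under normal chow and -2.37, -3.97 and -4.11 under the high-Chol diet. It spans 250 genomic bases, against 60 for each of the others, as a probe does that crosses an intron. Probe A_51_P512384 (19305929 to 19305988) read -5.77, -5.44 and -5.92 under normal chow and -4.63, -3.29 and -3.67 under the high-Chol diet.

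Neither upstream probe was well above background on a normal chow array, and both were on all 3 high-Chol arrays, so they passed the filter through the high-Chol arrays alone. The high-Chol mean was at least 2.10-fold higher for A_51_P512379 and at least 1.61-fold higher for A_51_P512384. When every probe was tested by itself the adjusted p was 0.034 and 0.041, but these rest on normal chow values below background and say no more than the bounds. With slide as a block the adjusted p was 0.109 and 0.312, and with 1 array left out neither probe was called in 4 of the 6 fits, those without the normal chow array at position 2 or 3 or without a high-Chol array of slide 2. The normexp background turned both differences, to -0.28 and -0.54, and the bounds do not hold there.

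**Figure D3:**
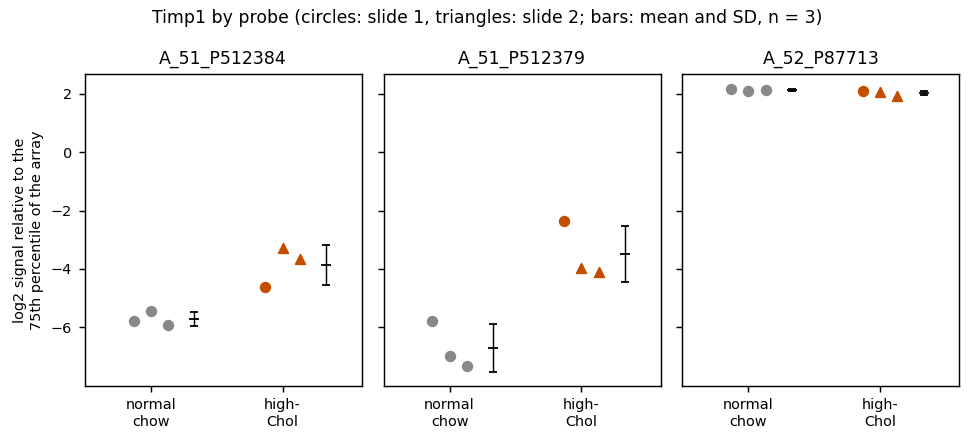
Relative signal (log2, 75th percentile of the array set to 0) of the 3 Timp1 probes on each of the 6 arrays, in their order along the chromosome, circles for slide 1 and triangles for slide 2, with bars for the mean and SD of 3 arrays. Both upstream probes separate the diets, and A_52_P87713 stays between 1.93 and 2.18 on all arrays.

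Among the other inhibitors, Timp3, which binds to the matrix and also blocks ADAM proteases, read 0.94, 1.75 and 1.56 under normal chow and 0.49, 0.21 and 0.73 under the high-Chol diet. All high-Chol arrays were lower, with a difference of -0.94 (SE 0.25, adjusted p = 0.116) that was -0.93 with slide as a block. Timp2, the partner of Mmp14 in the activation of pro-Mmp2, overlapped between the diets at 1.68, 1.90 and 2.17 against 2.10, 1.66 and 1.59 (difference -0.13, adjusted p = 0.717, or 0.18 within the slide block). Timp4 read -3.76, -3.72 and -4.07 under normal chow and -3.93, -1.88 and -1.89 under the high-Chol diet. It was well above background on 2 of the 3 normal chow arrays, so it passed the filter through the high-Chol arrays alone. Its slide 1 high-Chol array lay within the normal chow values and both slide 2 arrays were far higher, so its difference of 1.28 (adjusted p = 0.233) was -0.08 with slide as a block. Without the slide 1 high-Chol array it was 1.96 and called (adjusted p = 0.0026), in a fit where diet and slide cannot be told apart.

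Of the cross-linking enzymes, Loxl2 read -0.79, -2.14 and -1.23 under normal chow and -0.39, -0.63 and -0.56 under the high-Chol diet. The diets did not overlap, but the normal chow arrays were widely spread, and the gene was not called (difference 0.86, SE 0.33, adjusted p = 0.209, or 1.00 within the slide block). Its second probe differed by 0.85, again without overlap. Loxl1 read -3.24, -3.43 and -3.13 against -2.42, -3.12 and -3.06, also without overlap (difference 0.40, adjusted p = 0.334, or 0.84 within the slide block).

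**Figure D4:**
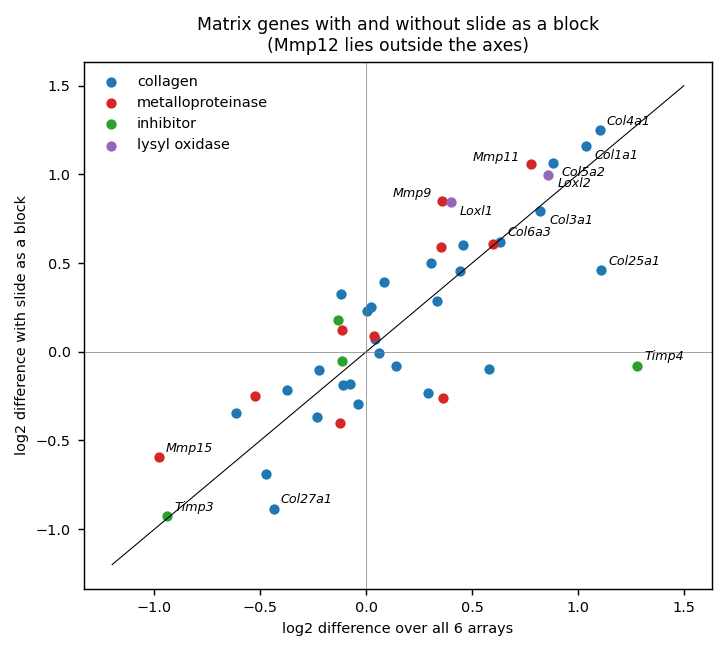
Log2 difference of each matrix gene over all 6 arrays (x axis) against the difference with slide as a block (y axis), with the line of equality. Col1a1, Col3a1, Col6a3 and Timp3 lie near the line, Timp4 falls from 1.28 to -0.08 and Col25a1 from 1.11 to 0.46.

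Markers of the cells that are known to make fibrillar collagen were not called. Of 8 stellate cell markers 5 were above 0 and 3 below, none was called, their median difference was 0.26, and their summed signal was 4.91 to 5.47 on normal chow and 4.82 to 5.05 on the high-Chol diet. All 4 myofibroblast markers were above 0 (median 0.68) and none was called, with a summed signal of 3.96 to 4.02 under normal chow and 4.30, 6.95 and 5.49 under the high-Chol diet. The sums did not overlap between the diets. Their spread came from Tagln, a smooth muscle actin-binding protein, at 6.88 and 5.29 on slide 2 and at 3.45 on the remaining high-Chol array, while Acta2, the smooth muscle actin of myofibroblasts, differed by 0.07. Cnn1, a calponin of smooth muscle, differed by 0.93 without overlap (adjusted p = 0.200), with a signal well above background on 1 normal chow array, and Myl9, a myosin light chain, by 0.43 with overlap. With slide as a block all 4 stayed above 0, at 0.16 for Tagln, 0.48 for Acta2, 1.34 for Cnn1 and 0.71 for Myl9. Of 7 endothelial markers 5 were above 0 and 2 below (median 0.08), none was called and 2 were higher without overlap between the diets, beside 11.6% of all genes, Stab2 (0.27) and Cdh5, the cadherin of endothelial junctions, the latter 1.92-fold higher (difference 0.94, adjusted p = 0.072). Their summed signal, most of it Clec4g, was 4.94 to 5.11 on normal chow and 4.95 to 5.09 on the high-Chol diet, and 0 of 3 mesothelial markers passed the filter. Of 5 cholangiocyte markers 1 was above 0, of 7 T and B cell markers 4 were, and none of either list was called. Without overlap, 2 cholangiocyte markers were lower, beside 13.7% of all genes, and 1 T and B cell marker was higher and 1 lower. The part of these cells in the collagen values was not tested.

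The wider matrix pathway was read in 4 lists, to be set beside 2.69% of all genes called higher and 47.8% above 0. Of 17 genes of collagen processing that passed the filter, 8 were above 0 and 9 below (median -0.01), and 1 was called, Pcolce2, an enhancer of procollagen trimming (difference 1.12, adjusted p = 0.038). Of 24 other matrix proteins 15 were above 0 (median 0.19), and 2 were called, Thbs1 and Fbn1. Thbs1, thrombospondin 1, which can activate latent TGF-beta, was not well above background on normal chow and at least 1.63-fold higher under the high-Chol diet, and Fbn1, fibrillin 1 of elastic microfibrils, was at least 1.47-fold higher by the same rule. Both passed the filter through the high-Chol arrays alone, so their calls say no more than these bounds. Of 19 genes of TGF-beta and PDGF signalling 13 were above 0 (median 0.16), and 1 was called, Tgfb1, the main profibrotic cytokine of the liver, at 0.99 (SE 0.17, adjusted p = 0.031). One call in 17 or in 19 genes is near that background. The calls of Tgfb1 and Pcolce2 each held in 1 of the 6 fits that left out 1 array, the fit without the high-Chol array of slide 1, with adjusted p of up to 0.147 and 0.166 in the others. That of Fbn1 was lost in the same 5 fits, and that of Thbs1 when the normal chow array at position 2, or the array at position 2 of slide 2, was left out.

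In the list of plasminogen activation and ADAM proteases 3 of 17 genes, Plau, Plaur and Adam8, were called higher and 0 lower, beside 2.69% and 0.227% of all genes, with 12 above 0 and a median of 0.24. Plau, the urokinase that turns plasminogen into plasmin, was not well above background on normal chow and at least 1.97-fold higher under the high-Chol diet, and since it passed the filter through the high-Chol arrays alone its call says no more than this bound. Its receptor Plaur differed by 2.57 (adjusted p = 0.0091) and Adam8, a protease of leukocytes, by 2.02 (adjusted p = 0.018), and both were not called with slide as a block (adjusted p = 0.120 and 0.162). The calls of Plau and Plaur (adjusted p = 0.063 for the latter) were lost when the normal chow array at position 2 was left out, and that of Adam8 was lost in 4 of the 6 such fits (up to 0.090). The list was chosen with earlier results of these data known, so its count describes these arrays.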

How the data were processed

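Total RNA of liver was labelled with Cy3 and hybridised to 1-colour Agilent arrays, 3 per diet. The deposited scanner files hold background-subtracted intensity per spot (processed signal) from Agilent Feature Extraction, version 9.1 per the submitters' processing notes and 9.5 and 9.1 in the headers of slides 1 and 2. The authors also deposited 1 log2 value per probe and diet, normalized and filtered in Gene Spring GX, with column medians of -0.0019 (normal chow) and -0.27 (high-Chol). Differences between these columns followed those computed here over 15978 genes (r = 0.994, slope 1.00, across genes, which are not independent replicates), which sets their direction and log2 scale, while the centring stays unknown. They have no replicates and were used for values only.

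Here, log2 intensity minus the 75th percentile of each array was used, without control and outlier spots. Spots of a probe were averaged, a probe needed signal well above background on each of the 3 arrays of 1 diet or of both, and the probe with the highest mean over 6 arrays stood for a gene. Diets were compared with limma 3.58.1 (R 4.3.3) over 16730 genes, with Benjamini-Hochberg adjusted p below 0.05. Fold counts used 1.5-fold. An exact permutation test of 3 against 3 arrays cannot give a two-sided p below 0.1. The script was tested on simulated data. The number of arrays limits the precision. Fits with 1 array left out have 2 arrays on 1 diet. Adjusted p-values of the upstream Timp1 probes come from the fit of every probe.

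Genes were named in full if called, if well above background on all 6 arrays without overlap between diets and over 1.5-fold, or if on a list of main collagens, metalloproteinases, inhibitors and lysyl oxidases. Called genes of the other lists were named, at most 4 per list. A gene of the pathway lists is not reported here and was left out of the counts of its list. Col2a1, Col11a2, Col22a1, Col27a1, Col4a4, Col7a1, Col25a1, Col15a1, Mmp7, Mmp17, Mmp24, Tagln, Acta2, Cnn1, Myl9, Cdh5, Stab2 and Clec4g were named after their values were seen. Members, lists and motifs were chosen with earlier results of these data known. Positions of probes come from the array annotation (build mm7), and no annotation of that build was used here. The alternatives were a normexp background (offset 50), quantile normalization, median scaling (floor 5), each probe alone, the probes averaged, no signal filter or one on all 6 arrays, slide as a block, 1 array left out, the methods' t-test and the authors' values. Timp1 by its other probes was added after seeing the data.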

Additional observations from a re-analysis of the deposited data

How the results depend on the processing

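The count of members called higher, 2 with the settings used, was 0 with the normexp background, 0 with slide as a block, 0 with the methods' t-test after adjustment, 1 with median scaling and 1 without a filter. With every probe by itself 4 probes of 3 members were called, those of Col1a1 and Mmp12 and 2 of Timp1. The count was 2 with quantile normalization (Mmp12 and Col1a1), with the filter for all 6 arrays (Col1a1 and Col2a1, as Mmp12 was not tested) and with the mean of probes (Mmp12 and Timp1), and 3 with Timp1 read by the brighter of its other 2 probes, an alternative chosen after seeing the data. Leaving out 1 array gave 1 to 8, the 8 when the high-Chol array of slide 1 was left out (Mmp12, Col1a1, Col3a1, Col6a2, Col6a3, Col25a1, Mmp24 and Timp4). The count called lower stayed at 0 except without that array, when it was 2 (Mmp15 and Col4a6), so leaving out 1 array gave 0 to 2. In the fit without the high-Chol array of slide 1, diet and slide cannot be told apart. The share of all genes called in that fit was not counted. The collagen median, 0.07, was -0.19 with the normexp background, -0.16 with median scaling, -0.049 with quantile normalization, 0.31 with every probe by itself, 0.30 with the mean of probes, -0.10 in the authors' values and 0.03 to 0.28 with 1 array left out. The metalloproteinase median, 0.35, was -0.45 with the normexp background, -0.012 with quantile normalization, -0.11 with the filter for all 6 arrays, -0.20 in the authors' values and 0.10 to 0.34 with 1 array left out. The median of all genes was -0.26 with median scaling and -0.28 in the authors' values, so signs of values near 0 turn there by the shift of all genes alone.

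Among the genes described by array, signs turned for several that were not called. With the normexp background these were Col5a2 (-0.49), Col6a1 (-0.38), Col6a2 (-0.18), Col6a3 (-0.038), Loxl1 (-0.41), Mmp2 (-0.45), Mmp9 (-0.72), Timp1 (0.093), Timp2 (0.11) and Timp4 (-0.24). With median scaling they were Col14a1 (-0.093) and Col6a1 (-0.15), with quantile normalization Col6a1 (-0.13) and Mmp9 (-0.012), and in the authors' values Col14a1 (-0.10) and Col6a1 (-0.16). With slide as a block they were Col14a1 (-0.080), Col6a2 (-0.10), Mmp19 (0.12), Timp2 (0.18) and Timp4 (-0.078), and in all 10 of the 46 members tested turned, the others being Col11a2, Col15a1, Col4a4, Mmp24 and Loxhd1. Timp1 turned to 1.65 with the mean of probes, which rests on 2 probes not above background on normal chow. With 1 array left out, Mmp19 ran from -0.28 to 0.16 (positive values of 0.16 and 0.066), Col6a1 from -0.074 to 0.27 (negative values of -0.061 and -0.074) and Mmp9 from -0.0032 to 0.90. In the normexp fit the adjusted p (limma) was 0.9997 for every gene listed for it. That setting used an offset of 50 on every array. Brightness at the 75th percentile, without that correction, was 271 to 373 on slide 1 and 762 to 799 on slide 2. The part of the offset in the signs turned by normexp was not tested, nor was the cause of the other turns. No paired analysis was possible because the array files carry no replicate number that joins a normal chow array to a high-Chol array. Signal over background limits the genes that did not pass the filter and the bounds for Mmp12 and the dim Timp1, Mmp9 and Col22a1 probes.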
